A study of Homo sapiens with 15 samples.

Results

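The 48 genes described here act in the mitotic spindle, the kinetochore, chromosome condensation and the exit from mitosis. They were taken by symbol from the deposited table of read counts, which lists 58676 genes. Each symbol occurred once there, and all 48 were among the 14461 genes with enough counts to be tested. The cells were of the established pancreatic cancer line PATU-8988T, of human origin, grown without sorting or a genetic change named in the labels. The control group received 0.1% DMSO, the solvent. The other 4 groups received 100 nM of THZ1 or 100 nM of YKL-5-124, each for 4 h or 24 h. Both compounds are described by the series as inhibitors of CDK7, and each group held 3 libraries, 15 in all. CDK7 is the kinase of the transcription factor TFIIH and also activates other cyclin-dependent kinases. THZ1 is known to bind CDK12 and CDK13 as well, while YKL-5-124 was made to be more selective for CDK7. No time is given for the solvent group, whose 3 libraries serve as control for all 4 treated groups. Replicates are numbered with no word on whether cultures were separate. Here p-values measure the spread between these libraries, which may be technical.

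Mitosis begins when CDK1 with cyclin B drives chromosome condensation and spindle assembly. Kinetochores, built on centromeres marked by CENPA, attach to microtubules through the NDC80 complex, and the spindle checkpoint holds back the ubiquitin ligase APC/C until all are attached. Most genes of this programme are transcribed in late S and G2 phase, when MYBL2 and FOXM1 act with the MuvB complex at promoters that carry a cell cycle genes homology region (CHR). In resting cells the DREAM complex represses the same promoters.

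The promoter windows are shown first because these genes are known for that shared element. RefSeq promoter entries on GRCh38.p14, from 250 bases before to 50 bases after a transcription start, were found for 39 of the 48 genes, with 46 windows in all. Entries were not matched for BUB3, FOXM1, TPX2, CDCA2, RACGAP1, BIRC5, AURKA, TTK and UBE2C. The 250 bases before the start are printed for 5 genes, 5′ to 3′ on the gene's strand: the chromosomal passenger gene CDCA8 and the cyclin gene CCNF, which fell most deeply with THZ1 among the genes with an entry at 24 h and at 4 h, CENPA, the only one of the 48 called in all 4 comparisons with DMSO, the condensin gene NCAPH, which fell most after 24 h of YKL-5-124, and the kinetochore gene ZWINT, which was called higher with THZ1 under TMM scaling (with the ribosomal protein reference its values were -0.12 at 4 h and -1.91 at 24 h) and lower with late YKL-5-124. Capitals mark the CHR core, searched as TTTGAA or TTCGAA, and the CCAAT box, searched as CCAAT, each on both strands. The windows lie at chr1:37692266-37692515 (plus strand), chr16:2429197-2429446 (plus), chr2:26785806-26786055 (plus), chr2:96335516-96335765 (plus) and chr10:56361274-56361523 (minus). The CENPA entry starts 21767 bases from the start that the count table gives for the gene.
CDCA8: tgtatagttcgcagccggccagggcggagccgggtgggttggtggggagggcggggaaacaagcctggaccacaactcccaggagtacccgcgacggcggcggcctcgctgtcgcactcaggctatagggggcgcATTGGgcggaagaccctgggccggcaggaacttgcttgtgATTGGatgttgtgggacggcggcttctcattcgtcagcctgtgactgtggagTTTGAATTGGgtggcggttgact
CCNF: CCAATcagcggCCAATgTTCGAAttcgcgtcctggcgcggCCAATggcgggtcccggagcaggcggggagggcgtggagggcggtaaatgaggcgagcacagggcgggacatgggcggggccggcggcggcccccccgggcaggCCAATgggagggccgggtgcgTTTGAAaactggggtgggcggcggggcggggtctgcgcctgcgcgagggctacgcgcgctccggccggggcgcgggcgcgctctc
CENPA: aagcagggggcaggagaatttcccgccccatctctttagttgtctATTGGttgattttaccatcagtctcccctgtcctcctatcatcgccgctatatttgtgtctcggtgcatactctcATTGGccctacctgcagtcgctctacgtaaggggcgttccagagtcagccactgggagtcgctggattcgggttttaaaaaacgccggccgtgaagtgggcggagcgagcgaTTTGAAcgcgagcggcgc
NCAPH: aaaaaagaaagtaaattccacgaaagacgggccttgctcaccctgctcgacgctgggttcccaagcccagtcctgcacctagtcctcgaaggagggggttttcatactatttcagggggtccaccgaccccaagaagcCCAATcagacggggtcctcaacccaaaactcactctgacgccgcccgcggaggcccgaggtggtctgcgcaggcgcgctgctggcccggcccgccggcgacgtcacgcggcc
ZWINT: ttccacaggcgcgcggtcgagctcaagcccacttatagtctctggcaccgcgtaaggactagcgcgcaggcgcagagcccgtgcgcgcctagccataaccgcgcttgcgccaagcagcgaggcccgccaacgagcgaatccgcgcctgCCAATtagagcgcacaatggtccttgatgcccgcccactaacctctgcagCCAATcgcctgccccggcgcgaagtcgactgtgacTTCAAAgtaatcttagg

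In CDCA8 a TTTGAA began 23 bases before the start and ran into a reversed CCAAT box. In CENPA a TTTGAA began 18 bases before the start. CCNF held TTCGAA next to a CCAAT box and a TTTGAA further downstream, ZWINT held a reversed TTTGAA beginning 17 bases before its start, and NCAPH held a CCAAT box with no CHR core in its window. Across all 46 windows, 32 (69.6%) held a CHR core and 31 (67.4%) a CCAAT box, and 50% held both. Among all 35116 RefSeq windows of the same length, 16.4% held a CHR core, 34.6% a CCAAT box and 6.38% both. Matches of the 2 motifs overlapped in 2 of the 46 windows. Of the 45 CHR matches, 30 began within 50 bases of the start. The 30 genes with a CHR core in a window had a median log2 change of -2.29 after 24 h of THZ1, and the 9 with an entry but no core had one of -2.31. A match of letters is a description and shows no binding.

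**Figure D1:**
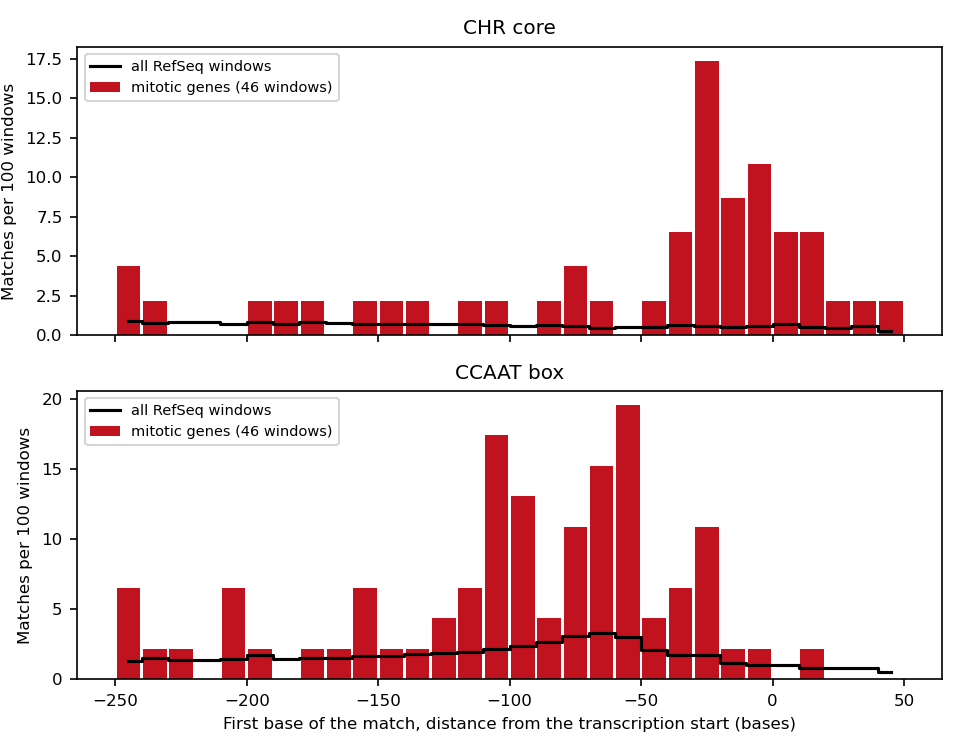
Matches per 100 promoter windows in bins of 10 bases (vertical axis) against the distance of the match's first base from the transcription start (horizontal axis), for the CHR core above and the CCAAT box below. Red bars are the 46 windows of the mitotic genes and the black line is all 35116 windows. CHR matches of the mitotic genes gather in the 50 bases on either side of the start, and CCAAT boxes lie mostly upstream of them.

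Libraries held 15567057 to 22869590 counts. The markers of an epithelial line with mesenchymal features were partly present in DMSO: on the CPM scale (counts relative to each library's scaled total) KRT8 stood at 910.1 to 1183, KRT18 at 431 to 442, EPCAM at 10.1 to 15.6 and VIM at 165 to 173, while CDH1 was at 0.193 to 0.295 CPM and KRT19 at 0. The acinar and islet genes PRSS1, CPA1, INS and GCG had 0 counts in all 15 libraries, and CD3E too. After 24 h of THZ1 the epithelial genes KRT8 (2405 to 3097 CPM), EPCAM (55.1 to 68.4), KRT7 (3.13 to 4.39) and CDH1 (3.47 to 6.76) lay above their DMSO ranges, KRT18 (238 to 380.3) lay below its own, and KRT19 was at 0 to 0.204. The mesenchymal genes VIM (272 to 303) and ZEB1 (34.3 to 39.1) and the fibroblast gene COL1A1 (1.21 to 7.25) also lay above their DMSO ranges, and DCN was at 0. These marker ranges are TMM-scaled and were not recomputed under other scalings. Unscaled counts summed over 3 libraries were 12141 in DMSO and 7852 in THZ1 24 h for VIM, and 1759 and 1012 for ZEB1. For KRT8 they were 76237 and 73183, and for EPCAM 932 and 1719. Mean library totals were 20196100 and 16944466 in these groups. The make-up of the libraries also shifted in that group: mRNAs of 89 ribosomal protein genes took 21.0% to 23.4% of counts, against 9.14% to 11.7% in DMSO and 6.61% to 8.83% after 24 h of YKL-5-124. The part of these shifts in the changes below was not tested, other than by rescaling to library totals and to ribosomal protein mRNAs. CPM below are scaled by TMM factors, which ranged from 0.532 to 0.559 in THZ1 24 h and from 1.15 to 1.27 in DMSO.

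As unscaled shares of all counts, the 48 genes made up 0.885% to 1.12% in DMSO, 0.698% to 0.892% after 4 h of THZ1 and 0.172% to 0.195% after 24 h of THZ1. With YKL-5-124 the share was 0.820% to 0.902% at 4 h and 0.832% to 1.04% at 24 h. The late THZ1 libraries therefore lay below all 12 others, and the YKL-5-124 ranges overlapped that of DMSO. Per kb of gene length, the genes spanned a wide range of levels in DMSO. The APC/C activator CDC20 was highest at 186 ± 14.4 CPM per kb (SD, n = 3), followed by its partner UBE2C at 155 ± 21.2, ZWINT at 119 ± 6.07 and the kinase AURKA at 115 ± 5.08. ZWINT and AURKA differed by less than these SDs. CCNF (3.87 ± 1.45), NUSAP1 (2.88 ± 0.806) and PRC1 (0.0912 ± 0.104) were lowest.

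Late THZ1 lowered nearly the whole set. After 24 h, 39 of the 48 genes were lower than in DMSO and 4 were higher at an adjusted p under 0.05 (quasi-likelihood test of edgeR, Benjamini-Hochberg adjustment over all 14461 genes). Of all genes tested, 44.0% were lower and 32.3% higher in that comparison. The fall was at least 2-fold for 38 of the 39, against 36.0% of all genes. It was at least 4-fold for 25 and at least 8-fold for 11. All genes were not counted at 4-fold and 8-fold, so these 2 counts have no background beside them. The median log2 change was -2.27 for the set and -0.37 for all genes. In bulk RNA, fewer cells in G2 phase and mitosis cannot be told apart from less mRNA per cell. With library totals 45 genes were lower and 0 higher, beside 9384 and 2266 of all 14461 genes. With ribosomal protein mRNAs as reference 46 were lower and 0 higher, beside 11726 and 574 of all genes. These scalings shifted the median of all genes by -1.12 and -2.18. A count of falls that did not drop under them is therefore no separate check of the set.

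The earlier and weaker responses were mixed. At 4 h of THZ1, 14 of the 48 genes were lower and 7 higher, with 25.1% and 16.9% of all genes called in these directions, so the counts were near the background. With library totals or ribosomal protein mRNAs as reference, none of the 48 was higher at 4 h of THZ1, beside 583 and 29 of all genes. At 4 h of YKL-5-124, 2 genes were lower, CENPA and LMNB1, and 0 were higher (0.463% and 0.0553% of all genes). DESeq2 called 3 lower and 0 higher, beside 299 and 78 of all genes. Without adjustment, 8 genes were lower and 0 higher at a p under 0.05 in edgeR. All genes were not counted at that threshold. At 24 h of YKL-5-124, 12 genes were lower and 0 higher, against 12.7% and 8.92% of all genes. DESeq2 called 13 lower and 0 higher there, beside 2195 and 1607 of all genes. In edgeR 22 were lower and 1 higher at an unadjusted p under 0.05, again with no count over all genes. With ribosomal protein mRNAs as reference 0 genes were lower and 11 higher at 24 h of YKL-5-124, beside 203 and 5066 of all genes. With library totals 8 were lower and 2 higher, beside 1186 and 2093 of all genes. The turn of direction was thus shared with all genes. The median log2 change was -0.13, -0.11 and -0.26 in these 3 comparisons, beside 0, 0.0043 and -0.037 for all genes. Of the 48 genes, 32 were called with THZ1 alone, 12 with both compounds and 4 (MAD2L1, PTTG1, PRC1 and MKI67) in no comparison with DMSO. Of all genes tested, 61.7% were called with THZ1 alone, 18.9% with both compounds and 16.5% in none.

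**Figure D2:**
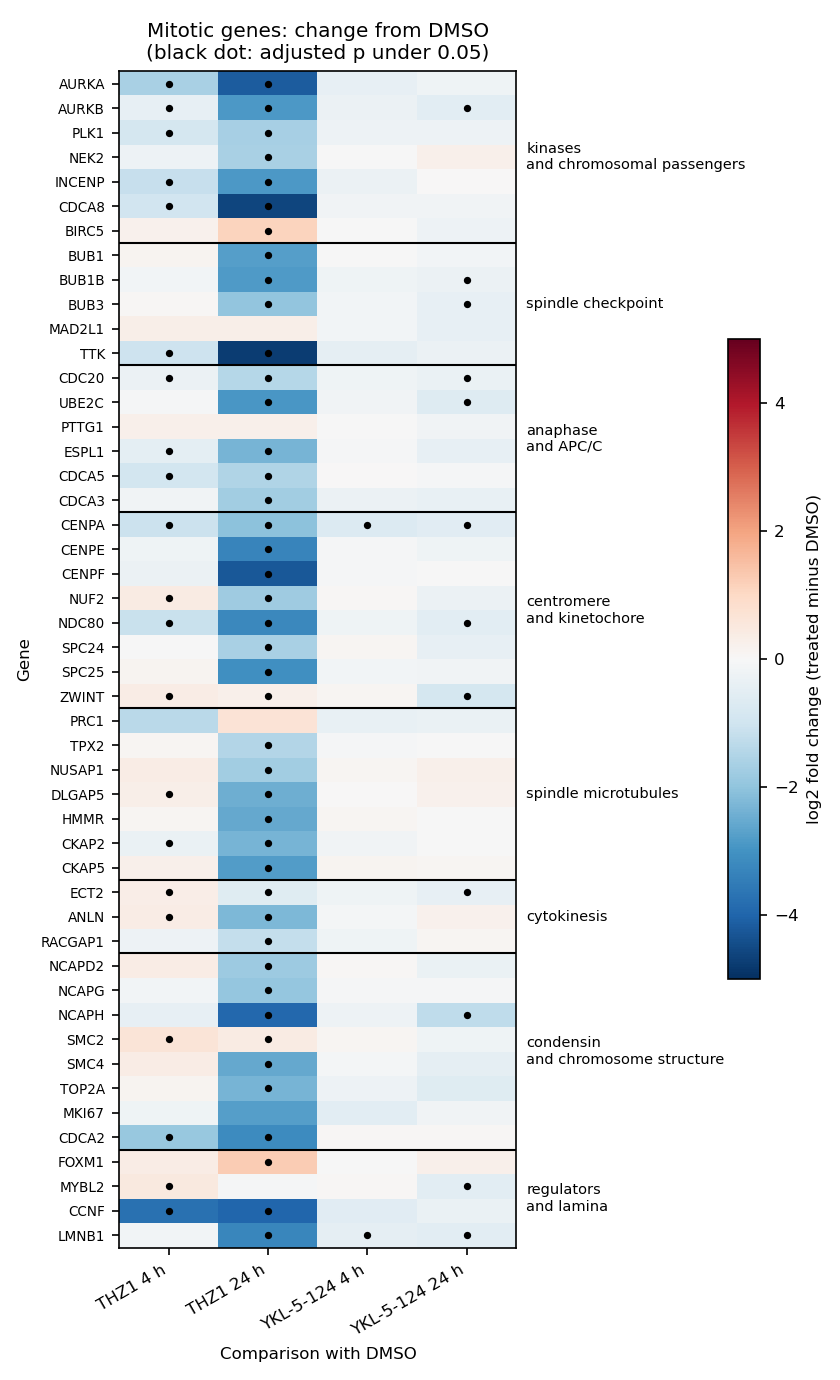
Log2 fold change from DMSO (colour, blue lower and red higher) of the 48 genes (rows, grouped by role) in the 4 treated groups (columns), with a black dot where the adjusted p was under 0.05. The THZ1 24 h column is blue with dots for 39 genes and red with dots for 4 under TMM scaling (0 with library totals), and the YKL-5-124 columns carry 2 and 12 dots.

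Mitotic kinases and the chromosomal passenger complex fell together with late THZ1, apart from 1 subunit. Of 7 genes, 6 were lower at 24 h of THZ1 and BIRC5 was higher, and 5 were already lower at 4 h. AURKA, the kinase of centrosome maturation and spindle assembly, stood at 352, 322 and 339 CPM in the DMSO libraries, 123, 108 and 102 at 4 h of THZ1 and 18.2, 17.7 and 21.5 at 24 h. With YKL-5-124 it stood at 267, 241 and 262 CPM at 4 h and 290.1, 296 and 283 at 24 h. The THZ1 groups overlapped neither each other nor DMSO, and the YKL-5-124 libraries also lay below all DMSO libraries. On the log2 scale, where ± gives the SE here and below, the change with THZ1 was -1.61 ± 0.10 (SE) at 4 h and -4.14 ± 0.11 at 24 h, a 17.6-fold fall (adjusted p = 8.96e-09 and 1.74e-12), while the changes with YKL-5-124, -0.40 and -0.22, did not pass (adjusted p = 0.095 and 0.12).

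CDCA8 encodes borealin, the passenger subunit that helps target the complex to centromeres. It stood at 93.4, 89.9 and 84.6 CPM in DMSO, 45.6, 46.7 and 46.4 at 4 h and 4.35, 3.16 and 3.65 at 24 h of THZ1, 76.5, 79.2 and 82.9 at 24 h of YKL-5-124. It fell 24.1-fold at 24 h of THZ1 (log2 -4.59 ± 0.13, adjusted p = 1.78e-12). The scaffold subunit INCENP fell by 1.16 at 4 h and 2.87 at 24 h on the log2 scale, and the catalytic subunit AURKB by 0.42 and 2.86. AURKB was also lower at 24 h of YKL-5-124 (-0.53). Its call at 4 h of THZ1 was lost without DMSO replicate 1 (adjusted p = 0.0513). PLK1, a kinase acting from mitotic entry to cytokinesis, fell by 0.88 and 1.64 with THZ1, and the centrosome kinase NEK2 fell by 1.64 at 24 h only among the THZ1 times (adjusted p = 0.156 at 4 h).

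BIRC5, which encodes the fourth passenger subunit survivin, went the other way. Its levels were 257, 195 and 241 CPM in DMSO, 298, 237 and 276 at 4 h of THZ1, 499, 487 and 512 at 24 h of THZ1 and 208, 204 and 167 at 24 h of YKL-5-124. The late THZ1 libraries lay above all others, 2.16-fold above DMSO (log2 1.11 ± 0.12, adjusted p = 6.39e-07). With library totals the difference was -0.0086 and with ribosomal protein mRNAs as reference it was -1.05, so the direction depended on the scaling.

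Of the 5 spindle checkpoint genes, 4 fell at 24 h of THZ1 and 1 was not called. TTK, the kinase that starts checkpoint signalling at unattached kinetochores, had the largest fall of the 48. It stood at 121, 104 and 128 CPM in DMSO, 66.0, 54.4 and 50.4 at 4 h of THZ1, 4.23, 4.90 and 3.97 at 24 h of THZ1, 103, 78.4 and 75.3 at 4 h of YKL-5-124 and 99.7, 95.1 and 89.7 at 24 h of YKL-5-124. The fall was 26.8-fold at 24 h (log2 -4.75 ± 0.17, adjusted p = 7.15e-12) and -1.04 at 4 h, and neither YKL-5-124 value passed. BUB1 and BUB1B, the kinetochore kinase and the checkpoint protein BUBR1, fell at 24 h of THZ1 (-2.75 and -2.81) and were not called at 4 h (0.12 and -0.13). BUB3, which carries both to kinetochores, fell by 1.96.

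MAD2L1, the checkpoint subunit that binds CDC20, did not follow. It stood at 186, 139 and 209 CPM in DMSO and 210.4, 236 and 211 at 24 h of THZ1, with the late libraries just above the highest of DMSO (log2 0.30 ± 0.20, adjusted p = 0.181), and at 159, 148 and 100.4 at 24 h of YKL-5-124. Its value was negative with library totals (-0.82) and with the ribosomal protein reference (-1.86). With late YKL-5-124, BUB3 fell by 0.43 and BUB1B by 0.27 (adjusted p = 0.00241 and 0.0473). BUB3 stood at 349.8, 327 and 335 CPM in DMSO and 257, 250.2 and 245 with YKL-5-124, without overlap. The BUB1B call did not hold when any 1 of the 6 libraries was left out (adjusted p up to 0.158).

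Among the 6 genes of anaphase and the APC/C, 5 fell at 24 h of THZ1. UBE2C, the ubiquitin-conjugating enzyme of the APC/C, fell most, from 185, 231 and 182 CPM in DMSO to 24.2, 29.1 and 25.7 (log2 -2.92 ± 0.17, adjusted p = 5.08e-10). At 24 h of YKL-5-124 it stood at 122, 119 and 141 CPM, below all DMSO libraries, the largest change of the group with that compound (log2 -0.64 ± 0.16, adjusted p = 0.00871). ESPL1, the protease separase, fell by 2.34 with late THZ1, CDCA3 by 1.73, CDCA5, the cohesin protector sororin, by 1.51, and CDC20 by 1.42. PTTG1, the separase inhibitor securin, had 231, 161 and 217 CPM in DMSO and 284, 234 and 216 at 24 h of THZ1, which overlap (log2 0.27 ± 0.17, adjusted p = 0.155).

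At 4 h of THZ1, CDCA5 had the largest change of these 6, from 183, 131 and 162 CPM in DMSO to 95, 80.2 and 77.6 (log2 -0.91 ± 0.12, adjusted p = 2.04e-05), with no overlap. ESPL1 (-0.47, adjusted p = 0.0446) and CDC20 (-0.29, adjusted p = 0.0487) passed narrowly. The ESPL1 value moved to -0.29 without DMSO replicate 2, and both calls were lost on leaving out any of 3 or 4 single libraries, with adjusted p up to 0.219 and 0.156. With late YKL-5-124, CDC20 fell by 0.35 (adjusted p = 0.0349, up to 0.137 with 1 library left out). At 4 h of YKL-5-124 the largest value of the group was that of CDCA3, which was not called (-0.30, adjusted p = 0.596).

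Of the 8 centromere and kinetochore genes, 7 fell at 24 h of THZ1 and ZWINT was higher. CENPF, a large kinetochore-associated protein, fell most: 94.6, 264 and 91.5 CPM in DMSO, 48.9, 192 and 124 at 4 h and 5.92, 7.76 and 10.1 at 24 h of THZ1, 88.4, 96.6 and 259.8 at 24 h of YKL-5-124. The late THZ1 libraries lay far below the rest (log2 -4.23 ± 0.63, adjusted p = 1.85e-05), and the other groups varied widely within themselves. The kinesin gene CENPE had a like spread, 31.4, 71.6 and 29.4 CPM in DMSO, and fell by 3.28 on the log2 scale.

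The 4 subunits of the NDC80 complex, the microtubule-binding core of the kinetochore, did not move alike at 4 h of THZ1. NDC80 fell from 152, 129 and 148 CPM in DMSO to 70.9, 62.5 and 63.4 (log2 -1.12 ± 0.11, adjusted p = 1.27e-06), whereas its dimer partner NUF2 rose from 86.6, 69.9 and 81.3 to 111, 98.8 and 108 (log2 0.42 ± 0.12, adjusted p = 0.0123). The NUF2 call was lost without DMSO replicate 2 (adjusted p = 0.0559) and its value was -0.089 with the ribosomal protein reference. SPC24 (-0.03) and SPC25 (0.12) were not called at 4 h. All 4 were lower at 24 h of THZ1: NDC80 by 3.21, SPC25 by 3.09, NUF2 by 1.79 and SPC24 by 1.62. At 24 h of YKL-5-124 NDC80 alone of the 4 was called (-0.54 ± 0.11, adjusted p = 0.00298). The differences between these subunits were not themselves tested.

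CENPA, the histone H3 variant that marks centromeres, was the only gene of the set called in all 4 comparisons with DMSO, as were 0.277% of all genes tested. It stood at 104, 91.2 and 94.8 CPM in DMSO, 51.6, 40.1 and 47.2 at 4 h of THZ1, 23.3, 23.5 and 23.2 at 24 h of THZ1, 59.8, 56.2 and 63.1 at 4 h of YKL-5-124, and 67.8, 66.5 and 60.8 at 24 h of YKL-5-124. Every treated library lay below every DMSO library. The log2 changes were -1.06, -2.05, -0.70 and -0.57 in that order, each with an SE of 0.11 (adjusted p = 1.3e-06, 2.44e-10, 0.00696 and 0.00145). The early YKL-5-124 call was lost without YKL-5-124 4 h replicate 2 (adjusted p = 0.0672), and the late one with the ribosomal protein reference (log2 0.0088). A further change of CENPA from 4 h to 24 h of YKL-5-124 was not detected (log2 0.12, 95% interval -0.10 to 0.35). CENPA shares 6.96% of its exonic bases with SLC35F6 on the same strand, so a part of its counts could be split between them.

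ZWINT links the outer kinetochore to checkpoint proteins. Its levels were 291, 267 and 292 CPM in DMSO, 369, 356 and 389 at 4 h of THZ1, 288, 379 and 356 at 24 h of THZ1, 303, 299.9 and 305 at 4 h of YKL-5-124, and 159, 148 and 155 at 24 h of YKL-5-124. With THZ1 it was 0.39 higher at 4 h and 0.27 higher at 24 h on the log2 scale (adjusted p = 0.00524 and 0.0231), while the 4 h value was -0.12 with the ribosomal protein reference. The 24 h libraries overlapped DMSO, the call was lost without DMSO replicate 2 (adjusted p = 0.0764), the value was 0.42 without THZ1 24 h replicate 1, and it was -0.86 with library totals and -1.91 with the ribosomal protein reference. Late YKL-5-124 left it below DMSO in every library (log2 -0.88 ± 0.10, adjusted p = 3.19e-05).

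The 7 genes of spindle microtubules included 6 that fell at 24 h of THZ1, while 1 was lower and 1 higher at 4 h. CKAP5, the microtubule polymerase ch-TOG, fell most. It stood at 346, 565 and 350.0 CPM in DMSO, 336, 642 and 524 at 4 h and 51.6, 63.5 and 68.1 at 24 h of THZ1 (log2 -2.78 ± 0.27, adjusted p = 1.85e-07). HMMR (-2.55), DLGAP5 (HURP, which bundles kinetochore fibres, -2.44), CKAP2 (-2.31), NUSAP1 (-1.72) and TPX2, the activator of AURKA on the spindle (-1.46), fell too. At 4 h of THZ1, DLGAP5 was higher (0.27, adjusted p = 0.0338, but -0.25 with the ribosomal protein reference) and CKAP2 lower (-0.35, adjusted p = 0.0144). The DLGAP5 call was lost on leaving out any 1 of 4 libraries (adjusted p up to 0.12) and the CKAP2 call without DMSO replicate 2 or THZ1 4 h replicate 1 (up to 0.0641). None of the 7 was called with YKL-5-124 at either time. Their largest value there, apart from PRC1, was 0.27 for NUSAP1 at 24 h (95% interval -0.24 to 0.78).

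The 3 cytokinesis genes showed a rise at 4 h and a fall at 24 h of THZ1 in 2 cases. ANLN, the contractile ring scaffold anillin, stood at 235, 263 and 226 CPM in DMSO, 261, 344 and 326 at 4 h and 56.4, 48.9 and 48.6 at 24 h of THZ1 (log2 0.36 ± 0.11 and -2.24 ± 0.12, adjusted p = 0.0192 and 2.2e-10). ECT2, the activator of RhoA at the division plane, stood at 457, 387 and 459 CPM in DMSO, 544, 514 and 567 at 4 h and 284, 295 and 282 at 24 h of THZ1, 331, 324 and 317 at 24 h of YKL-5-124. ECT2 had the smallest fall of the 39 genes called lower at 24 h of THZ1 (-0.59), and it fell by 0.42 at 24 h of YKL-5-124 (adjusted p = 0.00771). RACGAP1, which recruits ECT2, fell by 1.20 at 24 h of THZ1 and was not called at 4 h (-0.24, adjusted p = 0.061). The groups of ANLN overlapped at 4 h. The early rises were lost without DMSO replicate 2 for ECT2 (adjusted p = 0.0798) and on leaving out any 1 of 4 libraries for ANLN (up to 0.0862), and turned to -0.18 and -0.15 with the ribosomal protein reference.

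Of the 8 genes of condensin and chromosome structure, 6 fell at 24 h of THZ1, SMC2 was higher and MKI67 was not called. Condensin I is made of the ATPases SMC2 and SMC4 and the subunits NCAPD2, NCAPG and NCAPH. NCAPH, the kleisin that closes the ring, stood at 105, 107 and 98.0 CPM in DMSO, 75, 83.4 and 76.9 at 4 h and 4.11, 9.49 and 6.47 at 24 h of THZ1, 83.0, 86.2 and 93.7 at 4 h of YKL-5-124, and 39.5, 41.5 and 46.6 at 24 h of YKL-5-124. It fell 15.3-fold at 24 h of THZ1 (log2 -3.94 ± 0.20, adjusted p = 1.2e-10) and 2.43-fold at 24 h of YKL-5-124 (log2 -1.28 ± 0.17, adjusted p = 0.000129), the only gene of the set past 2-fold with YKL-5-124. SMC2 did the opposite with THZ1: 169.7, 209.6 and 175 CPM in DMSO, 231, 342 and 302 at 4 h and 220.2, 243 and 277 at 24 h (log2 0.66 ± 0.15 and 0.42 ± 0.15, adjusted p = 0.00289 and 0.0219). The late SMC2 call was lost without DMSO replicate 1 or 3 or THZ1 24 h replicate 3 (adjusted p up to 0.0803), and its value was -0.71 with library totals and -1.79 with the ribosomal protein reference.

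SMC4 fell by 2.57, NCAPG by 1.94 and NCAPD2 by 1.80 at 24 h of THZ1, and none of the 3 was called in another comparison with DMSO. TOP2A, the topoisomerase that untangles sister chromatids, fell by 2.34 with late THZ1 and had -0.60 at 24 h of YKL-5-124, which did not pass (adjusted p = 0.061). CDCA2 (Repo-Man), a phosphatase targeting subunit on chromosomes, responded early. It stood at 66.3, 64.9 and 66.8 CPM in DMSO, 17.3, 18.7 and 16.6 at 4 h and 5.56, 9.60 and 7.10 at 24 h of THZ1, 73.1, 69.2 and 65.6 at 4 h of YKL-5-124, and 65.5, 64.7 and 75.6 at 24 h of YKL-5-124. The fall was 3.77-fold at 4 h and 8.85-fold at 24 h of THZ1 (adjusted p = 5.28e-08 and 8.8e-11), with YKL-5-124 values of 0.07 and 0.06.

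Of the 4 regulators and lamina genes, CCNF and LMNB1 fell at 24 h of THZ1, FOXM1 was higher and MYBL2 was not called. CCNF encodes cyclin F, the substrate receptor of an SCF ubiquitin ligase. Its levels were 19.0, 35.0 and 19.3 CPM in DMSO, 1.52, 2.28 and 1.77 at 4 h of THZ1 and 1.93, 1.33 and 1.46 at 24 h, against 11.9, 17.8 and 19.5 at 4 h of YKL-5-124, and 13.9, 16.0 and 28.3 at 24 h of YKL-5-124. It was the 1 gene already more than 4-fold lower at 4 h, 13.2-fold (log2 -3.72 ± 0.34, adjusted p = 4.92e-07). Under TMM scaling no further change was detected from 4 h to 24 h (log2 -0.24, 95% interval -1.13 to 0.64). In that comparison library totals shifted the median of all genes by -0.87 and the ribosomal protein reference by -1.67. Unscaled counts of CCNF were low, 32, 43 and 38 at 4 h of THZ1 and 16, 13 and 14 at 24 h. The YKL-5-124 values, -0.58 and -0.34, were not called, and the first was -0.22 without DMSO replicate 2.

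FOXM1, the forkhead factor of the G2/M programme, stood at 23.1, 51.3 and 26.2 CPM in DMSO, 28.6, 52.1 and 49.2 at 4 h and 48.1, 96.2 and 95.6 at 24 h of THZ1. It was 2.38-fold higher at 24 h (log2 1.25 ± 0.35, adjusted p = 0.00418), although THZ1 24 h replicate 1 lay within the DMSO range, and the value was -1.003 with the ribosomal protein reference. Of its exonic bases 15.9% also lie in ITFG2. MYBL2, which loads onto MuvB in S phase, stood at 146, 182 and 164 CPM in DMSO, 209, 254 and 226 at 4 h and 148, 154 and 173 at 24 h of THZ1, 108, 114 and 122 at 24 h of YKL-5-124. It rose at 4 h of THZ1 (0.49, adjusted p = 0.00292, but -0.033 with the ribosomal protein reference), was not called at 24 h (-0.05) and fell at 24 h of YKL-5-124 (-0.52, adjusted p = 0.00461). Neither factor was called lower at 24 h of THZ1 under TMM scaling.

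LMNB1, lamin B1 of the nuclear envelope, stood at 196, 193 and 188 CPM in DMSO, 178, 182 and 169 at 4 h of THZ1, 18.1, 21.4 and 20.04 at 24 h of THZ1, 146, 137 and 139 at 4 h of YKL-5-124, and 131, 138 and 131 at 24 h of YKL-5-124. It fell 9.68-fold at 24 h of THZ1 (adjusted p = 1.78e-12) and was not called at 4 h (-0.13). With YKL-5-124 it was below DMSO at both times (-0.45 and -0.53, adjusted p = 0.0231 and 0.000489), and each YKL-5-124 library lay below each DMSO library. The 4 h call was lost when any 1 of 5 of the 6 libraries was left out (adjusted p up to 0.168), with the value between -0.48 and -0.44.

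**Figure D3:**
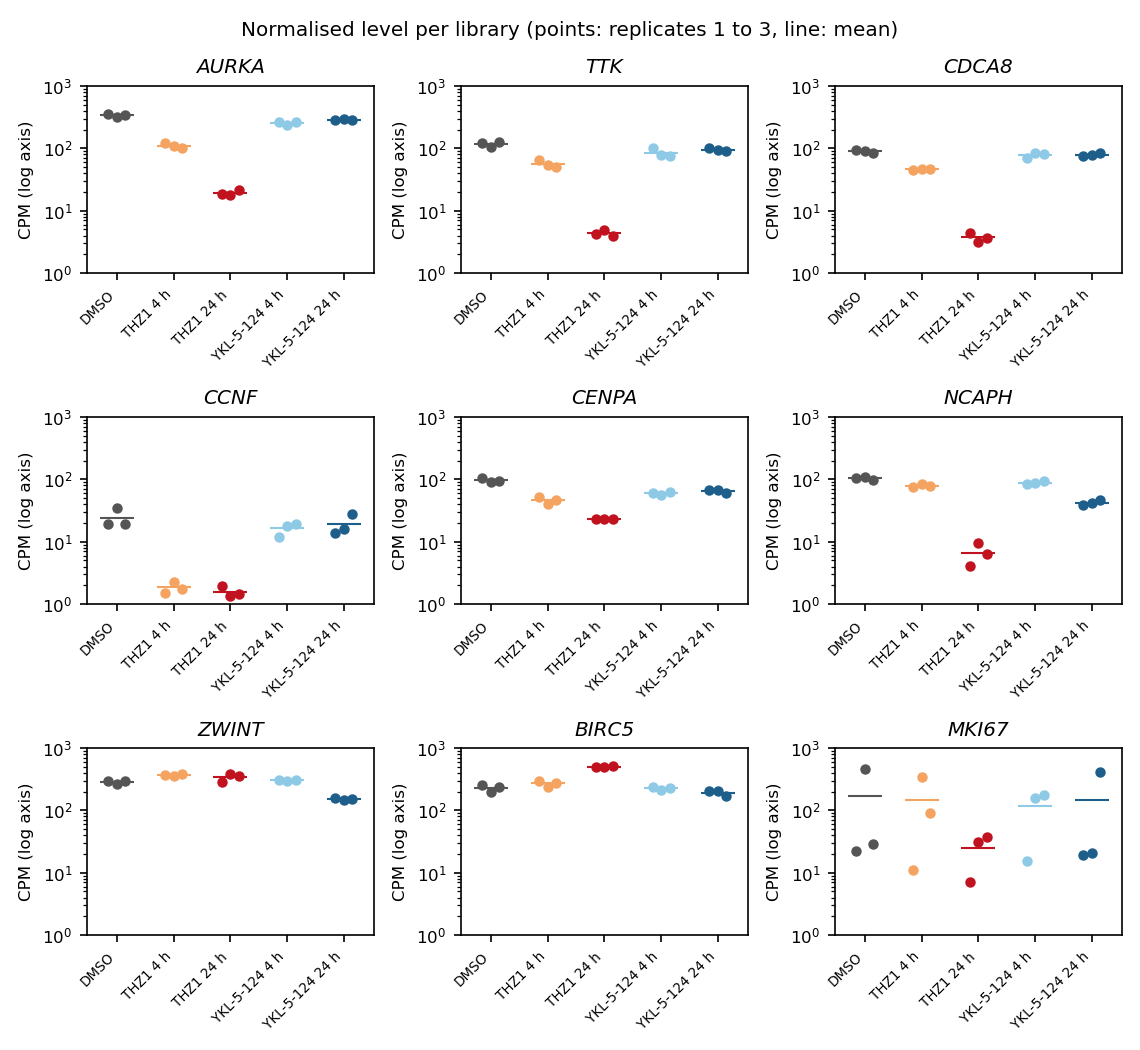
TMM-scaled CPM on a log axis (vertical) of 9 genes in the 5 groups (horizontal), with a point for each of the 3 libraries and a line at their mean. AURKA, TTK, CDCA8, CENPA and NCAPH step down with THZ1, and CCNF is already at its low level at 4 h on this TMM scale. ZWINT is lowest at 24 h of YKL-5-124, and MKI67 spreads 20.3-fold within DMSO. BIRC5 is highest at 24 h of THZ1 on this scale, but with library totals it was -0.0086 from DMSO on the log2 scale.

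The compounds were compared directly at 100 nM and matched times, as 48 differences at each time with p-values adjusted over all 14461 genes. At 24 h, 38 genes were lower with THZ1 than with YKL-5-124 and 7 were higher, where 44.1% and 31.8% of all genes were called. TTK was 21.7-fold lower (log2 -4.44 ± 0.17), CDCA8 21.5-fold (-4.42 ± 0.13) and CENPF 18.6-fold (-4.22 ± 0.63). BIRC5 (1.37), ZWINT (1.15), FOXM1 (1.02), MAD2L1 (0.69), SMC2 (0.62), MYBL2 (0.47) and PTTG1 (0.45) were higher with THZ1. With library totals 0 genes were higher and 44 lower, beside 1998 and 9927 of all genes. With the ribosomal protein reference 0 were higher and 47 lower, beside 278 and 12944 of all genes. These scalings shifted the median of all genes by -1.28 and -2.76, so these counts of falls are no separate check of the set. The PTTG1 call was lost without THZ1 24 h replicate 1 or YKL-5-124 24 h replicate 3 (adjusted p up to 0.108), and the FOXM1 call on leaving out any 1 of 4 libraries (up to 0.0648). ECT2 did not differ beyond the error (log2 -0.17, 95% interval -0.39 to 0.04), and for PRC1 and MKI67 the intervals were too wide to place a difference.

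At 4 h, 10 genes were lower with THZ1 than with YKL-5-124 and 8 higher, near the 21.9% and 11.4% of all genes. CCNF was 8.85-fold lower (log2 -3.15 ± 0.34, adjusted p = 3.19e-06), CDCA2 3.96-fold and AURKA 2.32-fold. The largest differences upward were those of SMC2 (0.57), ECT2 (0.53) and ANLN (0.46). With library totals 1 gene was higher and 0 with the ribosomal protein reference, beside 199 and 26 of all genes. The count of 8 fell to 4 without THZ1 4 h replicate 3 and to 5 without YKL-5-124 4 h replicate 2 or 3. The SMC2 call was lost without THZ1 4 h replicate 3 (adjusted p = 0.0503). Of the 30 genes not called, 24 had a 95% interval that stayed within 2-fold in either direction. CENPA was lower with THZ1 here too (-0.37, adjusted p = 0.0154).

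**Figure D4:**
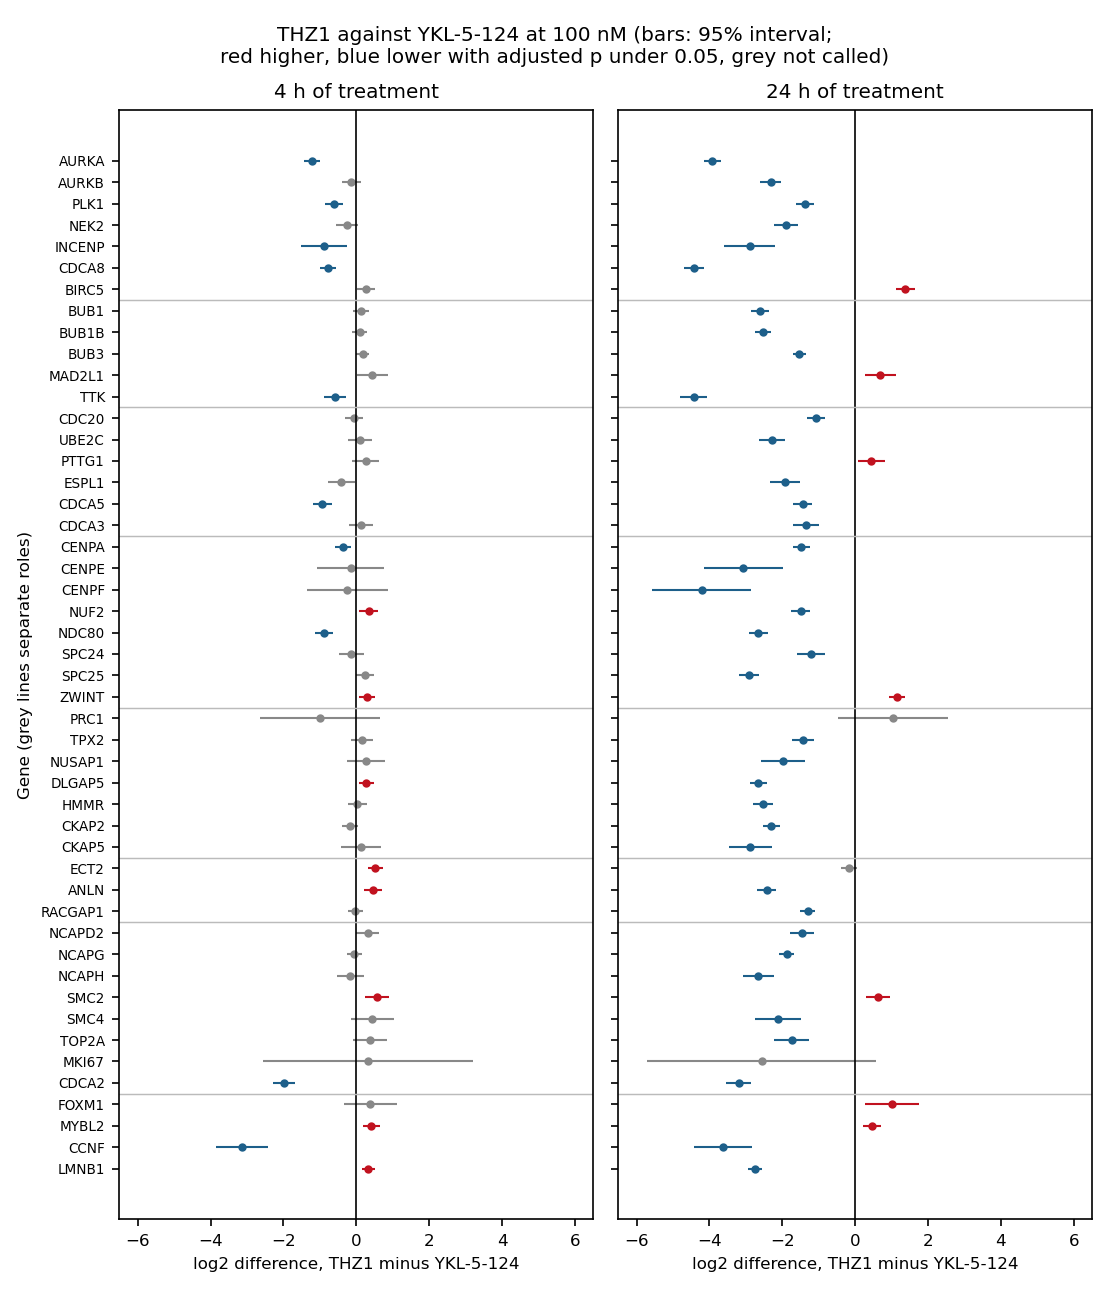
Log2 difference of THZ1 minus YKL-5-124 (horizontal axis) for each of the 48 genes (vertical axis, by role) at 4 h on the left and 24 h on the right, with 95% intervals. Blue and red are genes called lower and higher with THZ1, 10 and 8 at 4 h, 38 and 7 at 24 h, and grey genes were not called. With library totals 1 and 0 genes were higher at these times, beside 199 and 1998 of all genes.

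Most of the genes fell further between 4 h and 24 h of THZ1. In that comparison 39 genes were lower at 24 h and 3 higher, where 35.7% and 31.4% of all genes were called. CENPF (-3.93), TTK (-3.70) and CDCA8 (-3.64) dropped furthest. BIRC5 (0.88), FOXM1 (0.89) and PRC1 (2.05) were higher, but the FOXM1 and PRC1 calls were each lost on leaving out any 1 of 4 libraries (adjusted p up to 0.126 and 0.101), leaving 1 of the 3 calls without THZ1 4 h replicate 1 or THZ1 24 h replicate 2 or 3. With library totals or the ribosomal protein reference 0 genes were higher, beside 2292 and 754 of all genes. BIRC5 was -0.77 and FOXM1 -0.81 with the ribosomal protein reference. With YKL-5-124, 7 genes were lower at 24 h than at 4 h and 1 higher, against 11.9% and 9.22% of all genes. NCAPH (-1.04 ± 0.17) and ZWINT (-0.97 ± 0.10) dropped furthest, then MYBL2 (-0.59), and RACGAP1 was higher (0.32, lost on leaving out any 1 of 4 libraries, adjusted p up to 0.114). The count of 7 ranged from 3 to 6 with 1 library left out. With the ribosomal protein reference 0 were lower and 25 higher, beside 135 and 6746 of all genes.

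The interaction of compound and time tests whether the change from 4 h to 24 h differed between THZ1 and YKL-5-124. It was negative, a deeper fall with THZ1, for 38 genes and positive for 2, BIRC5 and ZWINT, where 31.0% and 26.6% of all genes were called. With library totals or the ribosomal protein reference 0 were called positive, beside 1558 and 198 of all genes. ZWINT was -0.18 and -1.50 in turn, and BIRC5 was -1.21 with the ribosomal protein reference. The median over the 48 was -1.81 and over all genes -0.15. Under TMM scaling CCNF, which had fallen by 4 h, had an interaction of -0.48 that did not pass (adjusted p = 0.435). Neither did SMC2 (0.05) or MYBL2 (0.05) on that scale. Library totals shifted the median interaction of all genes by -1.03 and the ribosomal protein reference by -2.34, so these values depend on the scaling.

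The measurements of 3 genes are unsure. MKI67, the proliferation marker Ki-67 that coats mitotic chromosomes, stood at 22.3, 454 and 28.6 CPM in DMSO, 10.9, 337 and 89.4 at 4 h of THZ1, 7.13, 30.7 and 37.0 at 24 h of THZ1, 15.6, 155 and 178 at 4 h of YKL-5-124, and 19.1, 20.7 and 408 at 24 h of YKL-5-124. Libraries of the same group differed up to 20.3-fold in DMSO, and no comparison was called (THZ1 24 h against DMSO: log2 -2.75 ± 1.48, adjusted p = 0.103). Without DMSO replicate 2 this value was -0.019. MKI67 is the longest of the 48 genes at 12807 bases in the table, and libraries differed within groups in how levels changed with gene length. The slope of log2 level on log2 length was 0.078 in DMSO replicate 2, and -0.040 and -0.038 in replicates 1 and 3. At 24 h of YKL-5-124 it was 0.074 in replicate 3, and -0.040 and -0.034 in replicates 1 and 2. DMSO replicate 2 and YKL-5-124 24 h replicate 3 were also the highest of their groups for CENPF, CENPE, CKAP5, SMC4, TOP2A, INCENP, FOXM1 and CCNF. With each library's slope on length as a covariate, MKI67 had a log2 change of -1.71 at 24 h of THZ1 (adjusted p = 0.000428). That covariate also took the late YKL-5-124 count from 12 to 25 lower and the early one from 2 to 8. Lower calls over all genes tested rose as well, from 1839 to 3474 at 24 h and from 67 to 690 at 4 h. The gain was thus shared with all genes.

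The 7 genes of at least 8000 bases spanned 1.07- to 20.3-fold between the 3 DMSO libraries, with a median of 1.81-fold, and the 40 shorter genes other than PRC1 spanned 1.03- to 2.22-fold with a median of 1.19-fold. Across the 48 genes, which share the same 3 libraries, log2 spread and log2 length had a Pearson r of 0.44 and a Spearman rho of 0.39, as a description.

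**Figure D5:**
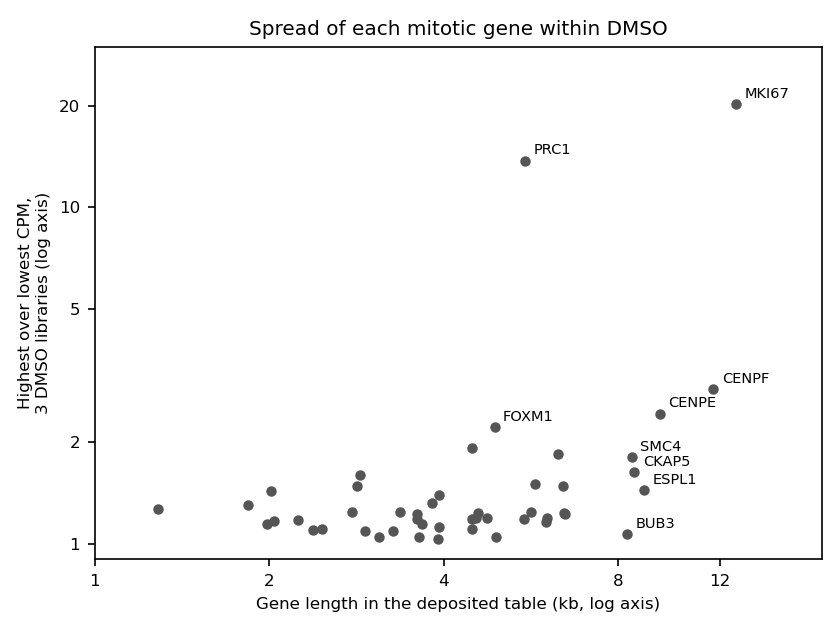
Highest over lowest CPM among the 3 DMSO libraries (vertical log axis) against gene length in kb (horizontal log axis), 1 point per gene. MKI67 at 20.3-fold and PRC1 stand apart, CENPF and CENPE follow among the long genes, and most genes lie between 1.03 and 2.22.

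PRC1, the antiparallel microtubule bundler of the central spindle, was nearly absent from the table: 0.266, 1.16 and 0.0843 CPM in DMSO and 0.725, 0.715 and 1.04 at 24 h of THZ1, from 134 counts in all 15 libraries. Of its exonic bases 57.6% lie within AC068831.7 on the same strand, which held 964 counts. Of the exonic bases of NUSAP1, a microtubule-bundling protein with 2775 counts, 62.2% lie within AC087721.2, which held 0. Whether reads in shared exons were counted for either gene was not tested, so the levels of PRC1 and NUSAP1 are uncertain. Of the 48 genes, 17 share some exonic bases with another gene and 8 share over 10%, NCAPG (33.1%, with LCORL on the opposite strand) and SMC4 (25.6%) most after these.

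Other genes of mitosis, in lists drawn up for this purpose, were tested in the same fit. Of 87 such genes 82 were tested, and at 24 h of THZ1 49 were lower and 20 higher, where 44.0% and 32.3% of all genes were called, with a median log2 change of -1.38. All 8 genes of the mitotic entry switch fell, among them CCNA2 (-4.55), CDC25C (-3.70) and CCNB1 (-3.38). The kinase WEE1 was at -3.78 at 4 h of THZ1. From 4 h to 24 h of THZ1, 7 of these 8 genes fell and 1 rose (log2 1.76). Of 11 tested genes of the spindle and midbody 10 fell, ASPM by 3.96. The next lists were near the shares of all genes. Of 16 APC/C genes 8 fell and 7 rose, with ANAPC15 at 2.57 and ANAPC11 at 1.94. Of 23 further kinetochore genes 9 fell and 9 rose, with CENPH at 1.97 and CENPN at 1.51.

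Among 12 genes of condensin II and cohesin, 7 fell and 2 rose at 24 h of THZ1, with WAPL, which releases cohesin, at -3.36 and NCAPG2 at 1.44. Of 12 genes of MuvB and DREAM 7 fell and 2 rose, with TFDP1 at 2.03 and the DREAM subunit RBL1 at -2.52. Library totals shifted the median of all genes by -1.12 and the ribosomal protein reference by -2.18 in this comparison, and the rises of these other genes were not recomputed under either. At 24 h of YKL-5-124, 26 of the 82 were lower and 3 higher, where 12.7% and 8.92% of all genes were called, with 10 of the lower ones among the further kinetochore genes, and at 4 h the test called 0.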

How the data were processed

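How the counting treated strand and multi-mapping reads was not given in the sources used here. Total RNA of 15 libraries was sequenced, and the authors deposited whole-number read counts per Ensembl gene, with the build GRCh38 and the tools featureCounts 1.5.0-p3, STAR 2.6.1d and DESeq2 1.24.0 named in the submitters' processing notes. The deposited gene lengths, the other unit in the table, were used for CPM per kb. The 48 genes, their roles and the other lists were chosen with earlier results of these data known.

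Genes were kept with edgeR's filterByExpr (minimum count 10, minimum total 15), which left 14461 genes and 99.9% of counts. A single model of group over all 15 libraries was fitted with TMM factors and edgeR 4.0.16 (R 4.3.3, limma 3.58.1). Quasi-likelihood tests were adjusted by Benjamini-Hochberg over all genes tested, with a threshold of 0.05. SEs were taken from the log2 change and its F value, and intervals are 95%. Library totals of 15567057 to 22869590 counts set the precision, and intervals cover the spread between these libraries. Exonic overlaps came from GENCODE release 29. The pipeline was tested on simulated data of 13715 genes, where the simulated comparison of THZ1 24 h with DMSO found 8% of genes set to change 1.5-fold, 56% at 2-fold and 82% at 4-fold. That of YKL-5-124 24 h with DMSO found 16%, 58% and 78% in turn. Of the genes called in these 2, 4.8% and 6.77% had not been set to change. Only 50 genes were changed at each fold, in either direction, and most genes stayed unchanged. The real comparison of THZ1 24 h with DMSO was not like that, so these shares do not describe it.

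Values per library are given for the genes with the largest fall and the largest rise or smallest fall of each role at 24 h of THZ1, those with the largest change in each other comparison with DMSO, genes called against most of their role, and genes spread over 5-fold within DMSO. Other genes named were chosen after their values were seen. Alternatives were library totals, RLE and upper-quartile factors, ribosomal protein mRNAs as reference, DESeq2 1.42.0, no filter, only the groups compared, a replicate block, a length covariate, leaving out each library, and, chosen after seeing the data, leaving out members with over 50% of exonic bases in another gene.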

Additional observations from a re-analysis of the deposited data

Results flagged for a closer look

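The change from 4 h to 24 h differed between THZ1 and YKL-5-124, by a test of the difference itself (the compound by time term, quasi-likelihood test of edgeR, Benjamini-Hochberg adjustment), for 38 genes with a deeper fall under THZ1 and for 2 with the opposite sign. The deepest were CENPF (-3.97 ± 0.81 (SE)), TTK (-3.85 ± 0.22 (SE)), CDCA8 (-3.65 ± 0.16 (SE)), SPC25 (-3.15 ± 0.17 (SE)) and LMNB1 (-3.07 ± 0.12 (SE)) on the log2 scale. BIRC5 (1.11 ± 0.17 (SE)) and ZWINT (0.85 ± 0.14 (SE)) were positive, and with library totals ZWINT was -0.18 and with ribosomal protein mRNAs as reference BIRC5 and ZWINT were -1.21 and -1.50. Groups held 3 libraries, too few to test a single library for its distance from the others.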

How the results depend on the processing

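The counts of genes lower at 24 h of THZ1, and of those lower with THZ1 than with YKL-5-124 at 24 h, stayed within 1.5 times of their values under all alternatives run. Out of 48 genes these counts of 39 and 38 had no room to rise by 1.5 times. Library totals and the ribosomal protein reference shifted the median of all genes downwards there, so these 2 scalings could not test for a drop. With library totals, the counts were 0 higher in THZ1 4 h against DMSO, 0 higher in THZ1 24 h against DMSO, 2 higher in YKL-5-124 24 h against DMSO, 1 higher in THZ1 4 h against YKL-5-124 4 h, 17 lower in THZ1 4 h against YKL-5-124 4 h, 0 higher in THZ1 24 h against YKL-5-124 24 h, 0 higher in THZ1 24 h against THZ1 4 h, 6 higher in YKL-5-124 24 h against YKL-5-124 4 h, 3 lower in YKL-5-124 24 h against YKL-5-124 4 h, 0 higher in the interaction of compound and time. Over all genes these counts were 583, 2266, 2093, 199, 4168, 1998, 2292, 2286, 1044 and 1558 in the same order. With ribosomal protein mRNAs as reference, the counts were 0 higher in THZ1 4 h against DMSO, 24 lower in THZ1 4 h against DMSO, 0 higher in THZ1 24 h against DMSO, 1 lower in YKL-5-124 4 h against DMSO, 11 higher in YKL-5-124 24 h against DMSO, 0 lower in YKL-5-124 24 h against DMSO, 0 higher in THZ1 4 h against YKL-5-124 4 h, 0 higher in THZ1 24 h against YKL-5-124 24 h, 0 higher in THZ1 24 h against THZ1 4 h, 25 higher in YKL-5-124 24 h against YKL-5-124 4 h, 0 lower in YKL-5-124 24 h against YKL-5-124 4 h, 0 higher in the interaction of compound and time. All genes gave 29, 5517, 574, 63, 5066, 203, 26, 278, 754, 6746, 135 and 198 in the same order. With the length slope as covariate, the counts were 14 higher in THZ1 4 h against DMSO, 8 lower in YKL-5-124 4 h against DMSO, 2 higher in YKL-5-124 24 h against DMSO, 25 lower in YKL-5-124 24 h against DMSO, 17 higher in THZ1 4 h against YKL-5-124 4 h, 4 higher in YKL-5-124 24 h against YKL-5-124 4 h, 17 lower in YKL-5-124 24 h against YKL-5-124 4 h, 4 higher in the interaction of compound and time. Lower calls over all genes also rose with the length covariate, from 1839 to 3474 in YKL-5-124 24 h against DMSO. In YKL-5-124 4 h against DMSO they rose from 67 to 690, and in YKL-5-124 24 h against YKL-5-124 4 h from 1716 to 3376. Higher calls over all genes rose from 2439 to 4034 in THZ1 4 h against DMSO and from 1290 to 2534 in YKL-5-124 24 h against DMSO. In THZ1 4 h against YKL-5-124 4 h they rose from 1649 to 3524. In YKL-5-124 24 h against YKL-5-124 4 h they rose from 1333 to 2595, and in the interaction from 3842 to 4508. With RLE factors, the counts were 7 higher in THZ1 24 h against DMSO, beside 5457 of all genes. With upper-quartile factors, the counts were 7 higher in THZ1 24 h against DMSO, 1 higher in YKL-5-124 24 h against DMSO, 5 higher in THZ1 24 h against THZ1 4 h, 2 higher in YKL-5-124 24 h against YKL-5-124 4 h, 4 lower in YKL-5-124 24 h against YKL-5-124 4 h. All genes gave 5615, 1759, 5750, 1583 and 1398 in the same order. With DESeq2, the counts were 7 higher in THZ1 24 h against DMSO, 13 higher in THZ1 4 h against YKL-5-124 4 h, 2 higher in YKL-5-124 24 h against YKL-5-124 4 h. All genes gave 5472, 2833 and 1662 in the same order. With no filter on low counts, the counts were 2 higher in THZ1 24 h against DMSO, 0 higher in YKL-5-124 24 h against YKL-5-124 4 h, beside 5657 and 1274 of all genes. With only the groups compared, the counts were 0 lower in YKL-5-124 4 h against DMSO, 5 higher in THZ1 4 h against YKL-5-124 4 h, 4 lower in YKL-5-124 24 h against YKL-5-124 4 h. All genes gave 4, 1026 and 1468 in the same order. Leaving out 1 library gave 0 to 2 lower in YKL-5-124 4 h against DMSO, 4 to 9 higher in THZ1 4 h against YKL-5-124 4 h, 1 to 3 higher in THZ1 24 h against THZ1 4 h, 0 to 1 higher in YKL-5-124 24 h against YKL-5-124 4 h, 3 to 6 lower in YKL-5-124 24 h against YKL-5-124 4 h. The cause was not tested.

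With library totals, the direction turned for these genes (log2): in THZ1 24 h against DMSO BIRC5 -0.0086, MAD2L1 -0.82, PTTG1 -0.85, ZWINT -0.86, PRC1 -0.46, SMC2 -0.71, and in THZ1 24 h against YKL-5-124 24 h PTTG1 -0.83, MYBL2 -0.82, SMC2 -0.67, MAD2L1 -0.58, FOXM1 -0.27, ZWINT -0.13, and in the interaction of compound and time ZWINT -0.18. With ribosomal protein mRNAs as reference, the direction turned for these genes (log2): in THZ1 24 h against DMSO BIRC5 -1.05, MAD2L1 -1.86, PTTG1 -1.90, ZWINT -1.91, PRC1 -1.59, SMC2 -1.79, FOXM1 -1.003, and in YKL-5-124 24 h against DMSO AURKB 0.048, BUB3 0.16, PRC1 0.071, ECT2 0.18, LMNB1 0.052, MKI67 0.42, CENPA 0.0088, NDC80 0.055, MYBL2 0.060, CDC20 0.23, BUB1B 0.31, and in THZ1 4 h against DMSO ANLN -0.15, DLGAP5 -0.25, ECT2 -0.18, ZWINT -0.12, NUF2 -0.089, MYBL2 -0.033, and in THZ1 24 h against YKL-5-124 24 h PTTG1 -2.31, MYBL2 -2.32, SMC2 -2.18, MAD2L1 -2.04, FOXM1 -1.79, ZWINT -1.62, BIRC5 -1.38, and in THZ1 24 h against THZ1 4 h BIRC5 -0.77, FOXM1 -0.81, and in YKL-5-124 24 h against YKL-5-124 4 h MYBL2 0.092, and in the interaction of compound and time ZWINT -1.50, BIRC5 -1.21. With the length slope as covariate, the direction turned for these genes (log2): in YKL-5-124 4 h against DMSO MKI67 0.42. With the replicate block, the direction turned for these genes (log2): in YKL-5-124 24 h against DMSO MKI67 0.061. With 1 library left out, the direction turned for PRC1 and MKI67, whose log2 changes ranged as PRC1 -1.85 to 0.17 in THZ1 4 h against DMSO, PRC1 -0.86 to 1.16 in YKL-5-124 4 h against DMSO, PRC1 -0.84 to 1.18 in YKL-5-124 24 h against DMSO, MKI67 -1.05 to 2.19 in YKL-5-124 4 h against DMSO, MKI67 -1.75 to 2.52 in THZ1 4 h against DMSO, MKI67 -3.08 to 2.55 in YKL-5-124 24 h against DMSO. Each turned without DMSO replicate 2, and MKI67 also without THZ1 4 h replicate 1 (0.34) or 3 (0.000433) and without YKL-5-124 24 h replicate 1 (0.35) or 2 (0.34), in the comparison of that group with DMSO. Other scalings moved the median of all genes at 24 h of THZ1, by up to 2.18 downwards with ribosomal protein mRNAs and by 1.12 with library totals, and RLE and upper-quartile factors moved it by 0.32 and 0.39 upwards.

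By the rule that every same-number pair of the groups compared correlates over 0.1, the replicate numbers were not taken to pair the libraries: 20 of 30 same-number pairs had a correlation of deviations over 0.1, with a range of -0.47 to 0.53, and 8 of 15 libraries correlated best with their own number. All 10 pairs of replicate 1 correlated, at 0.23 to 0.53, and THZ1 24 h with YKL-5-124 4 h, which were not compared, was the 1 pair of groups with all 3 numbers over 0.1. With the replicate block the counts were 8 higher and 16 lower in THZ1 4 h against DMSO, 5 higher and 40 lower in THZ1 24 h against DMSO, 0 higher and 2 lower in YKL-5-124 4 h against DMSO, 0 higher and 16 lower in YKL-5-124 24 h against DMSO. Over all genes they were 3078 and 3933, 4816 and 6548, 14 and 126, and 1628 and 2352 in the same order. Lower calls over all genes at 24 h of YKL-5-124 thus rose too, from 1839 without the block. Libraries of 3 a group limit what can be called: of the genes not called, the 95% interval stayed within 2-fold for 22 of 27 at 4 h of THZ1, 42 of 46 at 4 h of YKL-5-124 and 30 of 36 at 24 h of YKL-5-124.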
